A study of Mus musculus with 9 samples.

Results

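The genes described here were 36 mouse genes of the immediate early response and of the heat-shock response, taken by symbol from the gene counts of sorted brain microglia, which held 23238 symbols. The rule named the genes by symbol alone, and none of the 36 had more than 1 entry in the counts. By role they comprised 8 AP-1 subunits and partners, 10 other early transcription factors and 10 genes grouped as feedback regulators and other early products. The rest were 3 genes of growth arrest and translation recovery and 5 heat-shock genes. The filter on low counts kept 35 of them among the 12292 genes tested. The one left out was Dusp5, a phosphatase of ERK kinases, which had 0 counts in every one of the 9 libraries. A count of 0 allows up to 3 counts, or 0.359 to 0.505 CPM (counts scaled to a common library size) depending on the library, and this limit covers counting error only.

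RNA was taken on day 1 from cells sorted as positive for CD45, CD11b and P2ry12, a surface receptor of microglia, from adult female wild-type C57BL/6N mice, in 3 groups of 3 libraries, and 3 mice were pooled for each library. The Normal group had no treatment. The NMO group was given, on one side of the striatum, an injection of IgG from patients with neuromyelitis optica, which binds the astrocyte water channel aquaporin-4, together with human complement. The NMO+Clodronate group was given the same injection after an intraperitoneal dose of clodronate liposomes, which are taken up by phagocytes and kill them. All brains were dissociated with enzymes at warm temperature before the sort. Control IgG and empty liposomes were not analysed here, which means that injection, antibody and complement cannot be told apart, nor can clodronate and its liposomes. The p values measure the spread between pools.

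Immediate early genes are transcribed within minutes of a stimulus without new protein synthesis, because their activating factors, such as SRF and CREB, are already bound or ready in the cell and are switched on by kinases. Their products are transcription factors that carry the response forward and feedback regulators that end it. Heat-shock genes encode chaperones that refold or hold damaged proteins and are switched on by the heat-shock factor HSF1. In microglia both families are also known to be switched on by enzymatic dissociation of the brain, a step that every group here shared.

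Total counts ran from 5788234 to 7837219 per library, and the 36 genes took 0.776% to 1.27% of them. All 12 microglia markers examined were detected in each library, and their summed level was 36510 to 41488 CPM in Normal, 31811 to 36414 in NMO and 21118 to 29314 in NMO+Clodronate. By edgeR 9 of the 12 fell in NMO+Clodronate against Normal (4.43% of all genes) and 0 rose (4.79%), 4 fell in NMO+Clodronate against NMO (1.07%) and 1 fell in NMO against Normal (0.0244%). P2ry12, the receptor the cells were sorted for, fell from a mean of 2443 CPM in Normal to 353 in NMO+Clodronate, a log2 fold change of -2.79 (adjusted p = 4.62e-07), and Gpr34 and Siglech, a purine-receptor relative and a lectin of microglia, fell by 2.90 and 2.04 on the log2 scale. The summed level of 12 neutrophil markers was 100.7 to 588 CPM in Normal, 156 to 488 in NMO and 299 to 1373 in NMO+Clodronate, with Elane at 0 in 6 libraries. For 11 monocyte markers the sums were 76.6 to 117 CPM in Normal, 85.6 to 237 in NMO and 94.2 to 209 in NMO+Clodronate, and for 9 border macrophage markers they were 160 to 308, 8.62 to 192 and 216 to 408 CPM. For 10 lymphocyte markers no library exceeded 21.6 CPM, for 13 markers of astrocytes, oligodendrocytes and neurons none exceeded 294 CPM, and for 6 endothelial markers none exceeded 97.2 CPM. Single markers of these lists were called within those sums. The endothelial receptor gene Kdr had a mean of 13.9 CPM in Normal, 9.90 in NMO and 36 in NMO+Clodronate, and was higher in the last by a log2 fold change of 1.86 against NMO (adjusted p = 0.0272) and 1.37 against Normal (adjusted p = 0.0418). Fn1, of the monocyte list, had means of 4.41, 6.97 and 24.2 CPM and was higher against Normal by 2.45 (adjusted p = 0.0218). The astrocyte glutamate transporter genes Slc1a3, with means of 176, 108 and 95.5 CPM, and Slc1a2, with 8.90, 2.39 and 0.0486 CPM, were lower against Normal (adjusted p = 0.027 and 0.0298). None of these calls against Normal was made without Normal replicate 3, where the adjusted p was 0.0714 for Kdr, 0.0876 for Fn1, 0.132 for Slc1a3 and 0.0744 for Slc1a2, and each was also lost without NMO+Clodronate replicate 2 and without Normal replicate 1 or 2. The call of Kdr against NMO was lost without NMO replicate 1 or 2 or NMO+Clodronate replicate 1 or 2. The microglia sum of every NMO+Clodronate library thus lay below that of every other library, and the part of these levels in the results below was not tested. In RNA pooled over cells, fewer cells of a type and less RNA per cell cannot be told apart.

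A single library, an untreated one, stood apart for these genes. Normal replicate 3 had the highest level of the Normal libraries for 28 of the 35 genes tested (80%), against 33.9% of all 12292 genes. It had the highest level of all 9 libraries for 13 of the 35 (37.1%), against 11.5% of all genes. The summed level of the 8 AP-1 genes was 3482 CPM in Normal replicate 3, against 2526 and 2181 in the other Normal libraries, 2153 to 2530 in NMO and 1888 to 2901 in NMO+Clodronate. All 5 heat-shock genes also had their highest Normal level in this library, but none of them had its highest level of all 9 there. Normal replicate 3 had the lowest total count, 5788234, the most genes with a count, 14315, and 16.1% of its counts on the ribosomal entry Rn45s, where the other Normal libraries had 31% and 22.3%. That share was not the lowest of the 9 libraries, as NMO replicate 2 had 15.98%. The part of these properties in the levels was not tested, and every gene of the set or of the pathway lists that lost its call when this library was left out is given below with both values.

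**Figure D1:**
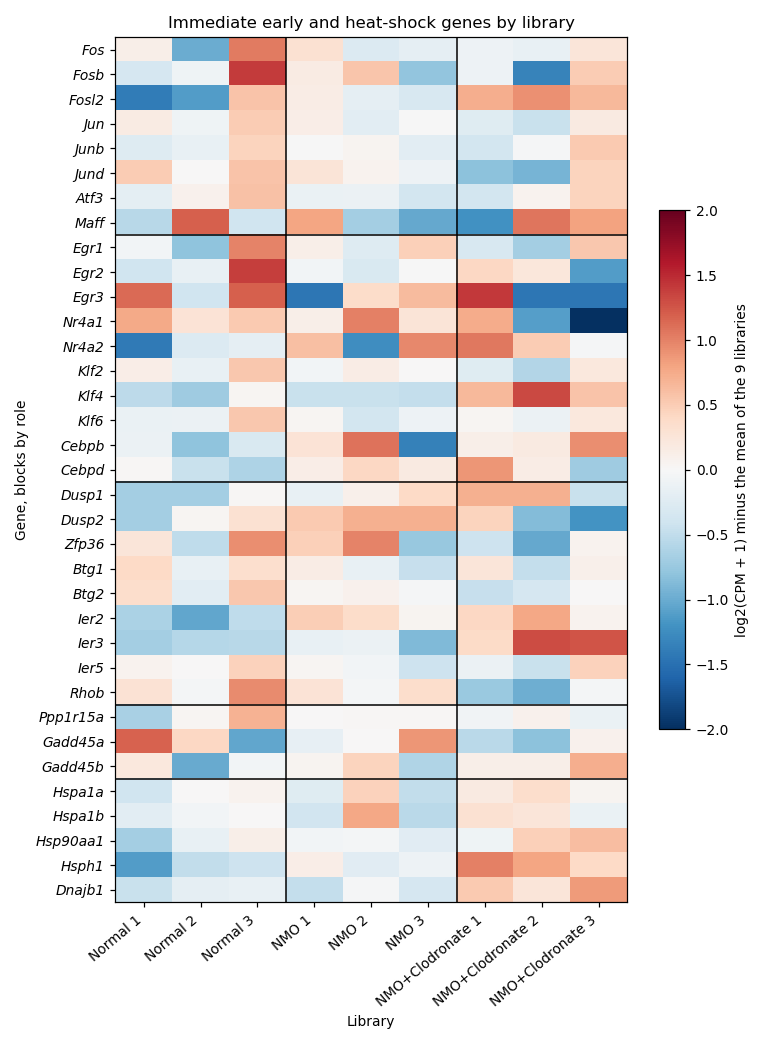
The heat map shows log2(CPM + 1) minus the mean of the 9 libraries for each of the 35 tested genes (rows, in blocks by role) in each library (columns, by group), with red above and blue below the gene's mean. Normal 3 is red for most early transcription factors and AP-1 genes, while the red cells for Klf4, Ier3, Hsph1 and Dnajb1 lie in the NMO+Clodronate columns.

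In NMO against Normal, no gene of the set was called at an adjusted p under 0.05, in either direction, by edgeR's quasi-likelihood test with Benjamini-Hochberg adjustment over all 12292 genes. The background was small: 0.472% of all genes were called higher and 0.0244% lower. At an unadjusted p under 0.05 there were 2 of the 35, beside 9.51% of all genes, and no call was made for a gene of the set by DESeq2 or limma-voom either. With a 1.5-fold change required as well, the same 2 genes, Hsph1 and Ier2, were higher (5.2% of all genes) and 0 were lower (2.77%). Libraries did not overlap for 4 genes that were higher in NMO (9.21% of all genes) and for 0 that were lower (8.2%). The median log2 fold change of the 35 was -0.09, beside -0.01 over all genes. It depended on the library named above: without Normal replicate 3 the median was 0.16, and 24 rather than 14 of the 35 values were positive.

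In NMO+Clodronate against NMO, 2 of the 35 genes rose, Klf4 and Ier3, where 0.529% of all genes were called higher. By edgeR 0 were called lower, where 1.07% of all genes were, and DESeq2 and limma-voom also called 0 lower. At an unadjusted p under 0.05 there were 5 higher (4.92% of all genes) and 2 lower (7.47%). By the looser rule of a 1.5-fold change with an unadjusted p under 0.05, 4 were higher (4.09% of all genes), namely Klf4, Ier3, Hsph1 and Dnajb1, and 2 were lower (6.65%), namely Dusp2 and Rhob. Libraries did not overlap for 5 that were higher (7.89% of all genes) and 1 that was lower (9.22%). The median log2 fold change was 0.13, beside -0.01 over all genes, with 23 of the 35 values positive. It was -0.0044, with 17 positive, without NMO+Clodronate replicate 1, 0.028 without NMO replicate 3, and 0.078 without NMO+Clodronate replicate 3.

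In NMO+Clodronate against Normal, 5 of the 35 rose, Ier3, Hsph1, Klf4, Ier2 and Dnajb1, and 1 fell, Rhob. Of all genes, 4.79% were called higher and 4.43% lower in this comparison. At an unadjusted p under 0.05 there were 8 higher (11% of all genes) and 3 lower (11.3%). DESeq2 called 7 higher and 0 lower, and limma-voom 5 higher and 1 lower. Shares of all genes called are those of edgeR throughout, and those of DESeq2 and limma-voom in this comparison are not given here. By the looser rule 7 were higher (9.9% of all genes), Fosl2 and Dusp1 being the additional ones, and 2 were lower (10.2%), Rhob and Jund. Libraries did not overlap for 8 that were higher (13.8% of all genes) and 0 that were lower (14.9%). The median log2 fold change was -0.10, and 0.28 without Normal replicate 3, beside -0.01 over all genes in both cases. The 3 comparisons share libraries pairwise, so that a call in one is not independent of a call in another.

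**Figure D2:**
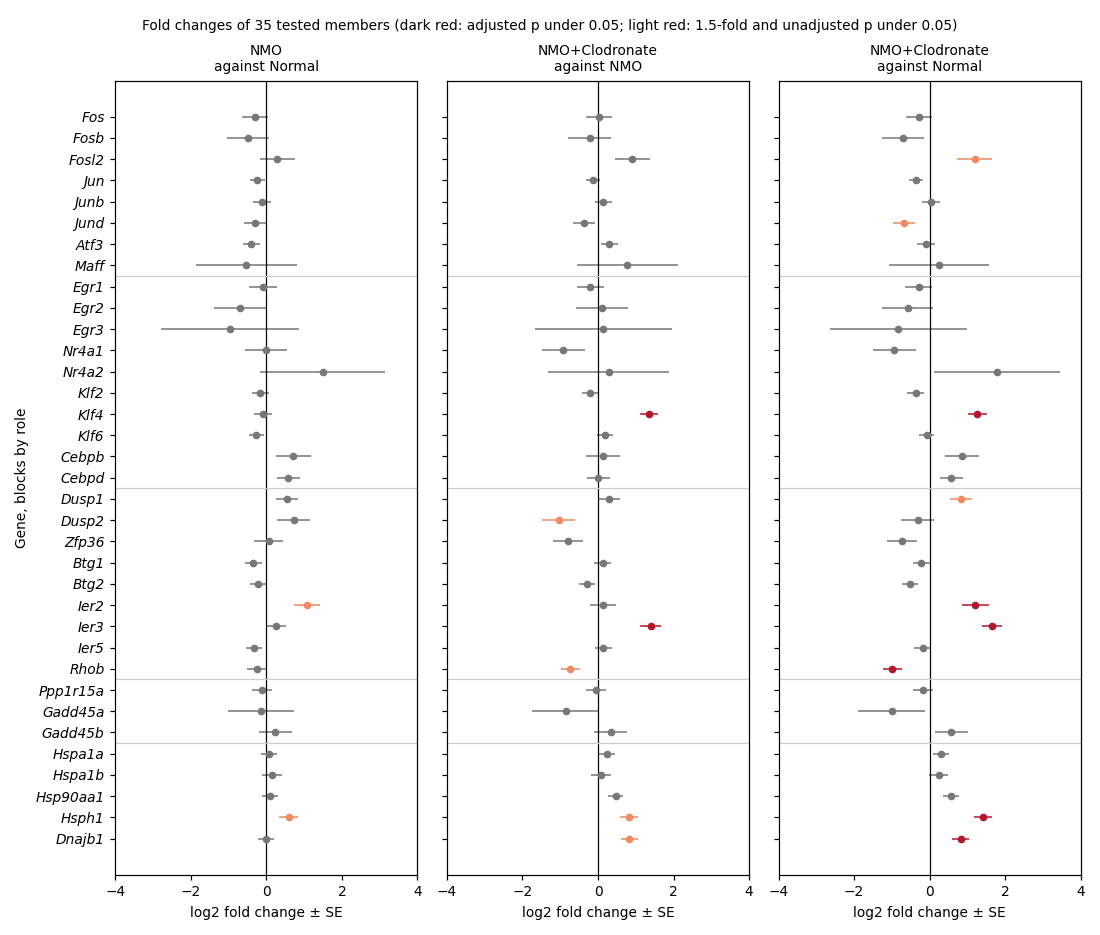
Each point is the log2 fold change of 1 of the 35 tested genes with its standard error, for the 3 comparisons from left to right, with genes in blocks by role. Dark red marks an adjusted p under 0.05 and light red a 1.5-fold change with an unadjusted p under 0.05, and the dark red points are Klf4 and Ier3 in the middle panel and Klf4, Ier2, Ier3, Rhob, Hsph1 and Dnajb1 on the right.

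The AP-1 genes, whose products pair into the dimer that binds AP-1 sites, gave no call in any comparison by edgeR or DESeq2, while limma-voom called Fosl2 higher in NMO+Clodronate against Normal. At an unadjusted p under 0.05 edgeR gave 1 of the 8 higher (11% of all genes) and 1 lower (11.3%) in that comparison and 0 in the other two. Jun, the main partner of that dimer and the most counted AP-1 gene, had 1427, 1205 and 1805 CPM in Normal, 1388, 1104 and 1272 in NMO and 1073, 935 and 1439 in NMO+Clodronate. The groups overlapped, with Normal replicate 3 on top, and the log2 fold change of NMO+Clodronate against Normal was -0.36 ± 0.19 (SE, adjusted p = 0.291). Fos, the prototype of the family, had 172, 79 and 324 CPM in Normal, 195, 129.5 and 139 in NMO and 146, 142 and 186 in NMO+Clodronate. Its lowest and its highest library were both Normal ones. Fos had a log2 fold change of -0.31 ± 0.34 in NMO against Normal and 0.03 ± 0.34 in NMO+Clodronate against NMO (SE).

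A stretch of the Fos promoter is shown as the reference for the family. It is chr12:85473740-85473939 of GRCm38.p6 on the plus strand, from 150 bases before to 50 bases after the RefSeq start of transcription, with the sequence TGACG, a partial cAMP response element, in capitals wherever it lies on either strand. It occurs at -129 to -125 and at -66 to -62, counted from +1 at the start with no 0.
Fos: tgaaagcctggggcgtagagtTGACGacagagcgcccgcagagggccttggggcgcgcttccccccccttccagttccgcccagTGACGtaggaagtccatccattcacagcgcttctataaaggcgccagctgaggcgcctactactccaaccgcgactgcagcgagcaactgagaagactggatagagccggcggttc
RefSeq promoter windows of 300 bases were found for 31 of the 36 genes, and 18 of the 31 (58.1%) held TGACG in at least 1 of their windows, against 23% of all 27025 genes. In the 3 lists read beside the set below, the share was 61.9% for other early response genes and 52.4% for upstream kinases and factors. It was 66.7% for other chaperones and HSF1 targets, so a high share was not particular to the set. The full element TGACGTCA, which contains TGACG on both strands, was in 4 of the 31 (12.9%), against 2.03% of all genes, and these were Maff, Dusp1, Btg2 and Ppp1r15a. The AP-1 site TGANTCA was in 0 of the 31, against 8.97% of all genes. Of single windows, 20.8% of 32851 held TGACG, 1.79% TGACGTCA and 7.81% TGANTCA. Such matches describe letters and not binding.

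Among the other AP-1 genes, Fosl2 and Jund came nearest to a call, in opposite directions. Fosl2, a late-acting Fos relative, had 7.33, 9.18 and 31.5 CPM in Normal, 23.4, 18.3 and 16.7 in NMO and 35.3, 40.5 and 33.6 in NMO+Clodronate. All NMO+Clodronate libraries lay above all others, and Normal replicate 3 lay far above its own group. In NMO+Clodronate against Normal the log2 fold change was 1.19 ± 0.46 (SE, adjusted p = 0.126), and without Normal replicate 3 it was 2.14 (adjusted p = 0.00852). Jund, a constitutive Jun relative, had 394, 277 and 414 CPM in Normal, 332, 291 and 259 in NMO and 157, 144 and 377 in NMO+Clodronate. A pair of NMO+Clodronate libraries lay below all others and the remaining one did not, with a log2 fold change against Normal of -0.68 ± 0.29 (SE, adjusted p = 0.175). Without NMO+Clodronate replicate 3, Jund was called lower, at -1.26 (adjusted p = 0.00165) against Normal and -0.97 (adjusted p = 0.037) against NMO. With low counts unfiltered both were called against Normal (adjusted p = 0.0488 for Fosl2 and 0.0204 for Jund). Atf3, Fosb and Junb had log2 fold changes between -0.71 and 0.30 in the 3 comparisons, and none was called in any setting. Maff, a small Maf protein that partners Fos, had at most 6.62 CPM and was too low to show a difference of the sizes seen elsewhere. Junb overlaps Prdx2 on the other strand at the exons, and the use of strand in counting was not given in the sources used here.

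Of the other early transcription factors, Klf4 was the one that was called. Klf4, a zinc-finger factor known for its part in reprogramming and in monocyte differentiation, had 96.4, 83.8 and 142 CPM in Normal, 102, 102 and 99.4 in NMO and 218, 348 and 207 in NMO+Clodronate. The NMO+Clodronate libraries lay above all others, and the NMO libraries lay within the Normal range. The log2 fold change was 1.35 ± 0.24 against NMO (SE, adjusted p = 0.00839), 1.26 ± 0.24 against Normal (adjusted p = 0.00281) and -0.09 ± 0.24 in NMO against Normal (adjusted p = 0.975). The call against NMO rested on NMO+Clodronate replicate 2, the highest library, without which the value was 1.08 (adjusted p = 0.0734). Over 17 other ways of processing, the call against Normal was made in 17 and the call against NMO in 16.

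The Klf4 promoter is shown as that of the early factor that was called. The stretch is chr4:55532526-55532725 of GRCm38.p6 on the minus strand, from -250 to -51 of the RefSeq start, again with TGACG on either strand in capitals, here at -232 to -228 as its reverse complement. No heat-shock pair, CArG box or AP-1 site of the kinds searched was in the 300 bases.
Klf4: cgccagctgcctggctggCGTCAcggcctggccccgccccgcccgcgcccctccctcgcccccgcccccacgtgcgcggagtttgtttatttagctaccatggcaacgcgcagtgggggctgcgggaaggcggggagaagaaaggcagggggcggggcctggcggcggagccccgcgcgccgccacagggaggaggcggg

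The remaining factors of this class were not called by edgeR, DESeq2 or limma-voom with all libraries. Klf6, the most counted of them, had 424, 427 and 679 CPM in Normal, 479, 362 and 431 in NMO and 477, 429 and 541 in NMO+Clodronate, with the highest value again in Normal replicate 3. Its log2 fold changes were -0.27 ± 0.21, 0.19 ± 0.21 and -0.08 ± 0.20 (SE) for NMO against Normal, NMO+Clodronate against NMO and NMO+Clodronate against Normal. Egr1, a zinc-finger factor much used as a readout of recent stimulation, had 309, 184 and 643 CPM in Normal, 348, 270.3 and 448 in NMO and 259, 200.2 and 468 in NMO+Clodronate. The groups overlapped, with the lowest and the highest library both Normal ones, and the log2 fold changes of Egr1 lay between -0.29 and -0.09 with standard errors of 0.36. Nr4a1, an orphan nuclear receptor, had 51.2, 36.6 and 43.6 CPM in Normal, 32.7, 61.3 and 35.9 in NMO and 51.1, 13.4 and 4.16 in NMO+Clodronate. Its NMO+Clodronate libraries spread more widely than those of either other group, and its log2 fold change against NMO was -0.92 ± 0.56 (SE, adjusted p = 0.549). Without NMO+Clodronate replicate 1, the highest library of that group, it was called lower, at -2.30 against NMO (adjusted p = 0.0157) and -2.31 against Normal (adjusted p = 0.00456).

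Cebpb and Cebpd, leucine-zipper factors of the inflammatory response, had log2 fold changes of 0.72 ± 0.45 and 0.57 ± 0.31 (SE) in NMO against Normal, with adjusted p of 0.69 and 0.602. The libraries of Cebpd did not overlap in that comparison, at 109.8, 79.5 and 70 CPM in Normal and 119, 144 and 122 in NMO, but in NMO+Clodronate they ran from 66 to 201. Without NMO+Clodronate replicate 3, Cebpd was called higher in NMO+Clodronate against Normal, at 0.89 (adjusted p = 0.0388). Klf2, a factor of quiescence, ranged from 166 to 362 CPM, with Normal replicate 3 the highest library. Egr2, Egr3 and Nr4a2 reached at most 21, 6.27 and 4.52 CPM, and the standard errors of their log2 fold changes were 0.68 to 1.82, so that differences of the sizes called elsewhere were not detectable for Egr3 and Nr4a2 at this depth.

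Of the 9 genes tested among the feedback regulators and other early products, edgeR called 2 higher (Ier2 and Ier3) and 1 lower (Rhob) in NMO+Clodronate against Normal. The shares of all genes were 4.79% and 4.43%. The group is a broad one, and its genes Dusp1, Dusp2 and Zfp36 were not called there by edgeR (adjusted p = 0.0817, 0.776 and 0.297). Ier3, an early product that modulates ERK and NF-kB signalling and cell survival, had 55.3, 59.9 and 60.1 CPM in Normal, 80.7, 82 and 47.9 in NMO and 117, 221 and 215 in NMO+Clodronate. Every NMO+Clodronate library lay above every other library, and the Normal libraries were within a few CPM of each other. The log2 fold change was 1.66 ± 0.27 against Normal (SE, adjusted p = 0.000852), 1.39 ± 0.27 against NMO (adjusted p = 0.0132) and 0.27 ± 0.27 in NMO against Normal (adjusted p = 0.88). The call against Normal was made in all 17 alternatives and the call against NMO in 15. The latter was lost without NMO+Clodronate replicate 2, at 1.24 (adjusted p = 0.0876), and with only the 2 groups compared, at 1.41 (adjusted p = 0.0518). The Ier3 promoter, chr17:35821563-35821762 of GRCm38.p6 on the plus strand, from -150 to +50, is shown beside that of Klf4 because the 2 were the genes called in both comparisons of NMO+Clodronate; none of the motifs searched occurred in its 300 bases, and no base is in capitals.
Ier3: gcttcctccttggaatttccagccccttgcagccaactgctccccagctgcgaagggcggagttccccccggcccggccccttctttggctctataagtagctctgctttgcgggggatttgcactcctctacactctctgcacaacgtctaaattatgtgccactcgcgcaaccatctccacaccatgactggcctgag

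Ier2, an early nuclear protein, had 14.5, 10.7 and 16 CPM in Normal, 32.8, 30 and 24 in NMO and 30.9, 40.2 and 24.3 in NMO+Clodronate. Both injected groups lay above Normal without overlap, and overlapped each other. Its log2 fold change was 1.08 ± 0.35 in NMO against Normal (SE, adjusted p = 0.241), 1.21 ± 0.35 in NMO+Clodronate against Normal (adjusted p = 0.0354) and 0.13 ± 0.34 in NMO+Clodronate against NMO (adjusted p = 0.94). The call against Normal was made in 9 of 17 alternatives, with an adjusted p of up to 0.172. It was lost without any one of the Normal libraries, without NMO replicate 1 and without NMO+Clodronate replicate 1 or 2, and without Normal replicate 3 the value was 1.34 (adjusted p = 0.0752).

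Rhob, an early-induced small GTPase that acts in endosomal traffic and the cytoskeleton, was the member called lower. Its level was 924, 736 and 1459 CPM in Normal, 915, 735 and 970 in NMO and 451, 384 and 742 in NMO+Clodronate. A single NMO+Clodronate library reached the lowest Normal and NMO ones, so the groups overlapped, and the highest library was Normal replicate 3. NMO+Clodronate differed by a log2 fold change of -0.98 ± 0.26 from Normal (SE, adjusted p = 0.0218) and of -0.73 ± 0.26 from NMO (adjusted p = 0.203). Without Normal replicate 3 the value against Normal was -0.66 (adjusted p = 0.172), so that the call depended on that library, and it was also lost without NMO+Clodronate replicate 1 or 2 and by DESeq2 (adjusted p = 0.0584). Without NMO+Clodronate replicate 3, Rhob was called lower than in NMO too, at -1.06 (adjusted p = 0.0398), as it was with low counts unfiltered (adjusted p = 0.011) and with the replicate number as a block (adjusted p = 0.0346).

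Dusp1 and Dusp2 encode phosphatases that switch off MAP kinases. Dusp1 had 104, 104 and 169 CPM in Normal, 149.9, 179 and 221 in NMO and 274, 275 and 122 in NMO+Clodronate, and its log2 fold change against Normal was 0.83 ± 0.29 (SE, adjusted p = 0.0817). A pair of NMO+Clodronate libraries lay above all others and the remaining one, replicate 3, among the Normal ones. Without that library Dusp1 was called, at 1.13 (adjusted p = 0.00679), and with all libraries it was called by DESeq2 (adjusted p = 0.0335) and with low counts unfiltered (adjusted p = 0.0041), both at 0.84. Dusp2 had 13.1, 22.1 and 26.9 CPM in Normal, 31.4, 35.8 and 35.7 in NMO and 29.6, 11.3 and 8.81 in NMO+Clodronate. The NMO libraries lay above all others, and the log2 fold change was 0.73 ± 0.44 in NMO against Normal (SE, adjusted p = 0.667) and -1.04 ± 0.44 in NMO+Clodronate against NMO (adjusted p = 0.321). It was called lower in the latter without NMO+Clodronate replicate 1, at -1.77 (adjusted p = 0.044).

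The antiproliferative genes Btg1 and Btg2, the early gene Ier5 and Zfp36 were not called by edgeR, DESeq2 or limma-voom in any comparison, with log2 fold changes between -0.80 and 0.14. Zfp36, which encodes tristetraprolin, the protein that marks AU-rich messages for decay, had 134, 79.8 and 217 CPM in Normal, 157, 226 and 66.4 in NMO and 84.3, 54.9 and 119 in NMO+Clodronate. Its libraries overlapped in all 3 comparisons, and with low counts unfiltered it was called lower in NMO+Clodronate, at -0.80 against NMO (adjusted p = 0.025) and -0.73 against Normal (adjusted p = 0.0246). Btg2 had a log2 fold change of -0.52 in NMO+Clodronate against Normal (unadjusted p = 0.0263, adjusted p = 0.151, edgeR). The Zfp36 promoter is printed as the example of a CArG box, the binding sequence of SRF, which is in capitals at -58 to -49 in chr7:28379179-28379378 of GRCm38.p6 on the minus strand, from -150 to +50.
Zfp36: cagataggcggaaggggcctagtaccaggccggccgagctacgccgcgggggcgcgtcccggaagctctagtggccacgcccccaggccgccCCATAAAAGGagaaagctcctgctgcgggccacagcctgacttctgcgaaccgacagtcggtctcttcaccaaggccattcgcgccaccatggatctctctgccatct
A CArG box was in 3 of the 31 genes with a promoter window (9.68%), namely Egr2, Dusp5 and Zfp36, against 1.81% of all genes and 1.63% of single windows.

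The 3 genes of growth arrest and translation recovery were not called by edgeR, DESeq2 or limma-voom, and 0 had an unadjusted p under 0.05. Ppp1r15a, which directs the phosphatase that restarts translation after stress, had 79.8, 129.6 and 205 CPM in Normal, 127, 128 and 128 in NMO and 119.6, 134 and 115 in NMO+Clodronate. The NMO libraries were all but equal, whereas the Normal ones spanned the whole range, with log2 fold changes of -0.11 ± 0.26, -0.06 ± 0.26 and -0.17 ± 0.26 (SE) in the 3 comparisons. Its exons overlap Tulp2 on the other strand. Gadd45a and Gadd45b, which bind cell cycle and stress kinase proteins, had log2 fold changes between -1.01 and 0.58 with adjusted p of at least 0.531.

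**Figure D3:**
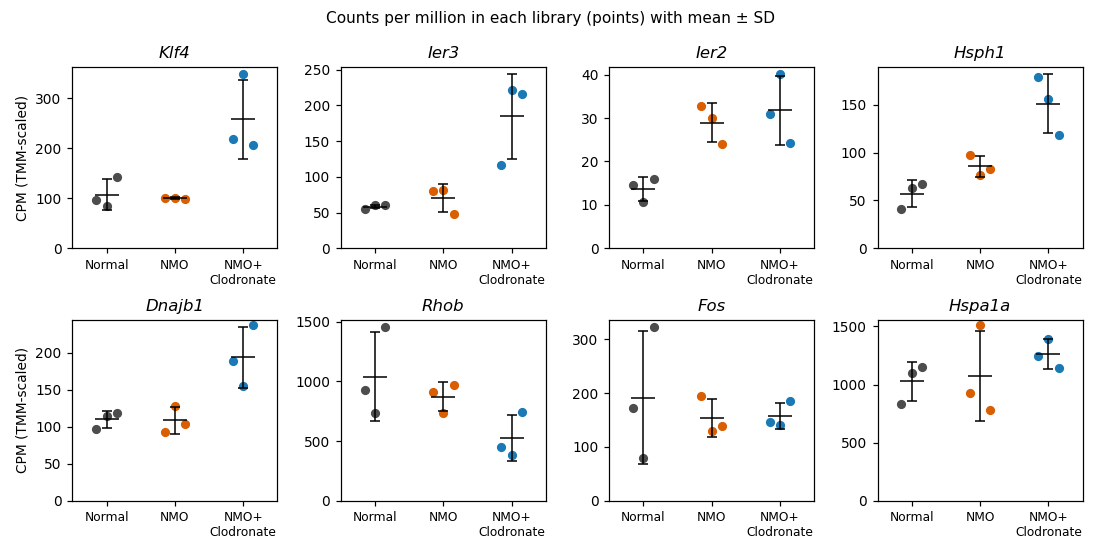
Level in CPM, relative to TMM-scaled library sizes, of 8 genes in each library (points) with the mean and SD of the 3 libraries of a group. All NMO+Clodronate points of Klf4, Ier3, Hsph1 and Dnajb1 lie above the NMO points, both injected groups lie above Normal for Ier2, and the Fos and Hspa1a points of the 3 groups overlap.

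The heat-shock genes were the only class whose log2 fold changes were all positive in both comparisons of NMO+Clodronate, but by edgeR 2 of the 5 were called higher against Normal (4.79% of all genes) and 0 against NMO (0.529%). Against NMO 3 were higher at an unadjusted p under 0.05 (4.92% of all genes), and DESeq2 called Dnajb1 and Hsph1 (adjusted p = 0.00474 and 0.0289) and limma-voom Dnajb1 (adjusted p = 0.0457). Hsph1, an exchange factor that resets the chaperone HSP70, had 40.8, 63.5 and 67 CPM in Normal, 97.6, 76.5 and 83.3 in NMO and 180, 156 and 118 in NMO+Clodronate. The groups formed 3 steps without overlap. Its log2 fold change was 0.59 ± 0.24 in NMO against Normal (SE, adjusted p = 0.439), 0.82 ± 0.24 in NMO+Clodronate against NMO (adjusted p = 0.112) and 1.41 ± 0.24 in NMO+Clodronate against Normal (adjusted p = 0.00127). The last was called in all 17 alternatives. Dnajb1, the HSP40 partner that delivers clients to HSP70, had 96.2, 115 and 118 CPM in Normal, 93.4, 128 and 104 in NMO and 189, 155 and 237 in NMO+Clodronate. All NMO+Clodronate libraries lay above all others. The log2 fold change of Dnajb1 was 0.82 ± 0.21 against Normal (SE, adjusted p = 0.0215), 0.83 ± 0.21 against NMO (adjusted p = 0.0627) and -0.01 ± 0.21 in NMO against Normal. The call was lost without any one of the Normal libraries, with a value of 0.87 and an adjusted p of 0.0588 without replicate 3, and without NMO+Clodronate replicate 3.

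Hspa1a and Hspa1b, near-identical neighbours that encode the inducible HSP70 itself, did not follow. Hspa1a had 832, 1103 and 1147 CPM in Normal, 928, 1515 and 781 in NMO and 1249, 1396 and 1140.3 in NMO+Clodronate. Its widest spread was within NMO, and the groups overlapped, as did those of Hspa1b, with 745, 825 and 860.3 CPM in Normal, 658, 1466 and 590 in NMO and 1056, 1020 and 786 in NMO+Clodronate. NMO replicate 2 was the highest library for both genes. The log2 fold change against Normal in NMO+Clodronate was 0.30 ± 0.22 for Hspa1a (SE, adjusted p = 0.5) and 0.24 ± 0.26 for Hspa1b (adjusted p = 0.704). With the pair summed it was 0.27 ± 0.23 (SE, adjusted p = 0.582), and the summed value was 0.11 in NMO against Normal and 0.16 in NMO+Clodronate against NMO. In the transcripts 52.7% of the 75-base words of Hspa1a were found in Hspa1b, but the nearest shared word ended 856 bases from the 3′ end of Hspa1a and 692 bases from that of Hspa1b, while the libraries read 3′ ends. Hsp90aa1, the inducible HSP90, had 677, 975 and 1172 CPM in Normal, 1045, 1056 and 927 in NMO and 1013, 1507 and 1658 in NMO+Clodronate, and its log2 fold change against Normal was 0.56 ± 0.21 (SE, adjusted p = 0.11). It was called higher there by DESeq2, at 0.57 (adjusted p = 0.04), with low counts unfiltered (adjusted p = 0.0406) and without NMO+Clodronate replicate 1, at 0.75 (adjusted p = 0.0315).

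Promoters are shown for Hspa1a and Hsph1, one heat-shock gene that did not pass the test and one that did, with pairs of the HSF1 unit (GAANNTTC or TTCNNGAA, either strand, and these can overlap) in capitals. Both run from -150 to +50 of the RefSeq start on the minus strand of GRCm38.p6, at chr17:34972107-34972306 for Hspa1a and chr5:149636287-149636486 for Hsph1.
Hspa1a: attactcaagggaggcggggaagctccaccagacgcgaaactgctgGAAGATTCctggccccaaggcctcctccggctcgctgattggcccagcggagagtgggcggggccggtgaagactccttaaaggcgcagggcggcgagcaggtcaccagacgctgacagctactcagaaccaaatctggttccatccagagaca
Hsph1: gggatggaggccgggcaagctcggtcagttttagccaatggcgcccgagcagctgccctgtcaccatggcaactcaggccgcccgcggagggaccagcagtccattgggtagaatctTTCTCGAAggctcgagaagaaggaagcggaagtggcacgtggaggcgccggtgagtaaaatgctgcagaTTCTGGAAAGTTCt
Hspa1a had 1 such pair, at -104 to -97, and the promoter of Hspa1b differed from it at 4 of 300 bases. Hsph1 had a pair at -33 to -26 and an overlapping run of 2 pairs between 37 and 49. Of the 4 heat-shock genes with a RefSeq window 3 held a pair and Dnajb1 did not, against 17% of all genes and 15.1% of single windows, so the 2 called genes were one with and one without a match.

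Some of the other chaperones and HSF1 targets, a list beside the 5 heat-shock genes of the set, also rose. The list was chosen with earlier results of these data known, so its counts are a description and not independent support. In NMO+Clodronate against Normal 9 of 23 tested rose and 0 fell, at the background of 4.79% and 4.43%, and the median log2 fold change was 0.75. In NMO against Normal, edgeR called 1 of 23 higher (0.472% of all genes), Hspa8, and 0 lower (0.0244%), and the median was 0.13. At an unadjusted p under 0.05 there were 7 higher (6.05% of all genes) and 1 lower (3.46%), and DESeq2 and limma-voom each called 2 higher, Hsp90ab1 and Hspa8. In NMO+Clodronate against NMO, edgeR called 0 in either direction, with 3 higher at an unadjusted p under 0.05 (4.92% of all genes), and the median was 0.39. In that comparison DESeq2 called Hsp90ab1, Hspa8 and Hspd1 higher (adjusted p = 0.00247, 0.000741 and 0.0237), and limma-voom called Hsp90ab1 and Hspa8. Those that rose against Normal were Hsp90ab1, Hspa8, Hspd1, Cacybp, Fkbp4, Stip1, Chordc1, Dnaja1 and Hspa4, of which several are constitutive chaperones and co-chaperones of HSP90 and HSP70. Without Normal replicate 3 Stip1 was not called, at 0.92 rather than 1.01 (adjusted p = 0.0667). Fkbp4 lost its call without Normal replicate 2, and Chordc1, Dnaja1 and Hspa4 without either Normal replicate 1 or 2 and without 1 or more of the NMO+Clodronate libraries. Hsp90ab1, the constitutive HSP90, had 832, 1275 and 1401 CPM in Normal, 2161, 2079.7 and 2036 in NMO and 2731, 3767 and 4110.0 in NMO+Clodronate. Its groups formed 3 steps without overlap, with a log2 fold change of 0.84 ± 0.19 in NMO against Normal (SE, adjusted p = 0.0657), 0.76 in NMO+Clodronate against NMO (adjusted p = 0.0618) and 1.60 ± 0.20 in NMO+Clodronate against Normal (adjusted p = 7.8e-05). The first 2 of these were each called in 6 of 17 alternatives, with adjusted p down to 0.00147 and 0.00247.

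Hspa8, the constitutive HSP70 relative, had 279, 302 and 331 CPM in Normal, 602, 585 and 574 in NMO and 875, 908 and 820.2 in NMO+Clodronate, also in 3 steps. In NMO against Normal it rose by a log2 fold change of 0.95 (adjusted p = 0.00908) and in NMO+Clodronate against Normal by 1.51 (adjusted p = 2.19e-05). Of the 75-base words in its last 500 bases, 83.8% also occur in other transcripts (Gm26825, Gm15459 and Gm8355), so its level is uncertain, and the call in NMO was lost without Normal replicate 1 or 2 or NMO replicate 1. Hspd1, the mitochondrial chaperonin, had 73, 95.4 and 114 CPM in Normal, 156, 148 and 98.6 in NMO and 229, 239 and 203 in NMO+Clodronate. All NMO+Clodronate libraries lay above all others, with a log2 fold change of 1.25 against Normal (adjusted p = 0.00168). Cacybp, an adaptor of ubiquitin ligases that binds HSP90-linked factors, had 18.3, 17 and 33.5 CPM in Normal, 41.7, 46 and 37.3 in NMO and 44.8, 46.8 and 51.7 in NMO+Clodronate. Both injected groups lay above Normal, and the log2 fold change of Cacybp was 1.06 (adjusted p = 0.0386) in NMO+Clodronate against Normal, a call made in 10 of 17 alternatives and lost without Normal replicate 1 or 2, NMO replicate 1 or any NMO+Clodronate library. The stress-inducible targets Hspb1 and Bag3 did not pass the test, as Hspb1 had a log2 fold change of 0.28 (adjusted p = 0.626) and Bag3 one of -0.07 (adjusted p = 0.96), both in NMO+Clodronate against Normal. The factor itself, Hsf1, had 0.06 (adjusted p = 0.966). Of the 24 genes on the list, tested or not, 18 had a RefSeq window, and 10 of those (55.6%) held a heat-shock pair, against 17% of all genes.

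**Figure D4:**
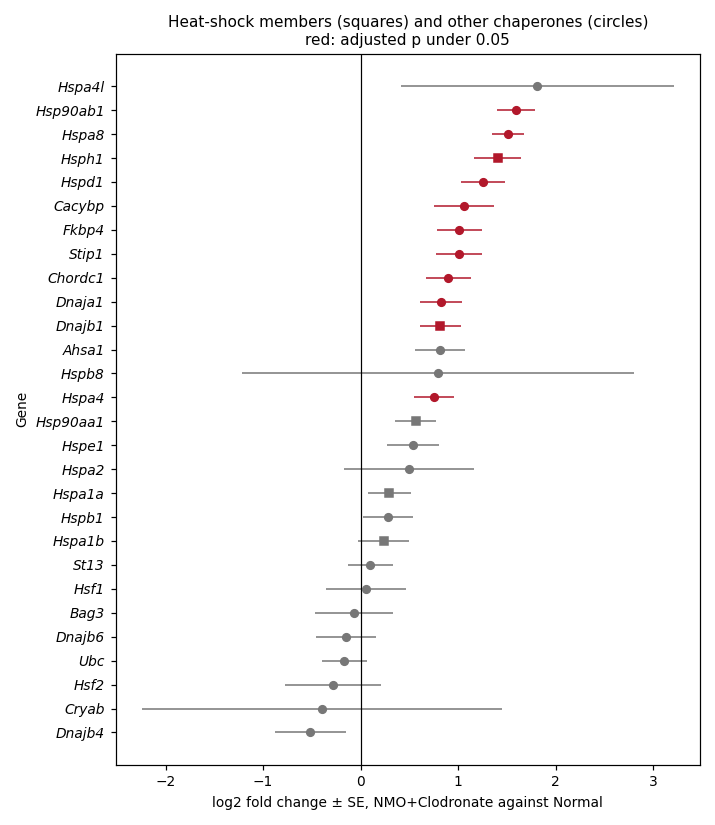
Log2 fold change with its standard error for NMO+Clodronate against Normal of the 5 heat-shock genes of the set (squares) and 23 other chaperones and HSF1 targets (circles), ordered by value. Red marks an adjusted p under 0.05, reached by 2 squares and 9 circles, while Hspa1a and Hspa1b lie at 0.30 and 0.24.

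Other early response genes were read from a list beside the set. Of 29 tested, edgeR, DESeq2 and limma-voom called 0 in NMO against Normal, where 4 were higher (6.05% of all genes) and 1 lower (3.46%) at an unadjusted p under 0.05 by edgeR. By edgeR 1 rose in NMO+Clodronate against NMO (0.529% of all genes), and 6 rose (4.79%) and 2 fell (4.43%) in NMO+Clodronate against Normal. The 3 comparisons had median log2 fold changes of -0.07, 0.22 and 0.15, in the order named. At an unadjusted p under 0.05, 6 were higher (4.92% of all genes) and 2 lower (7.47%) against NMO. There DESeq2 called Id2 and Mcl1 higher and Sgk1 lower (adjusted p = 1.82e-07, 0.00468 and 0.0359), and limma-voom called Id2, Klf9 and Mcl1 higher (adjusted p = 0.000941, 0.00792 and 0.039). The gene called against NMO by all 3 tools was Id2, an inhibitor of helix-loop-helix factors, with 225, 247 and 235 CPM in Normal, 325, 305 and 217 in NMO and 539, 746 and 562 in NMO+Clodronate. Its NMO+Clodronate libraries lay above all others, and its log2 fold change was 1.12 against NMO (adjusted p = 0.00751) and 1.38 against Normal (adjusted p = 0.000293). The call against NMO was lost without NMO+Clodronate replicate 2, as it was for Klf4 and Ier3.

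Per1, a circadian repressor that is also induced by glucocorticoids, had 10.4, 18.8 and 9.93 CPM in Normal, 12.8, 26 and 31.5 in NMO and 53.8, 49.9 and 48.8 in NMO+Clodronate. Every NMO+Clodronate library lay above every other, at a log2 fold change of 1.96 against Normal (adjusted p = 0.00315). Socs3, a feedback inhibitor of cytokine signalling, had a log2 fold change of 1.17 (adjusted p = 0.0108), and Mcl1, a survival factor of short life, one of 1.02 (adjusted p = 0.00166), both in NMO+Clodronate against Normal. The call of Socs3 was lost without Normal replicate 1 or 2. Nfkbia and Trib1 were the other genes that rose, at 0.82 and 0.65, and Sgk1 and Dusp6 fell by 0.74 and 0.66 on the log2 scale. Without Normal replicate 3 neither Trib1, at 0.71 (adjusted p = 0.0799), nor Dusp6, at -0.52 (adjusted p = 0.137), was called. Trib1 was also lost without any one of the other Normal libraries, NMO replicate 1 or NMO+Clodronate replicate 2, Dusp6 without Normal replicate 2 or NMO+Clodronate replicate 2, and Sgk1 without Normal replicate 1 or NMO+Clodronate replicate 2 or 3. Dusp6 encodes a phosphatase specific for ERK, and Sgk1 a kinase induced by serum and glucocorticoids.

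A list of kinases and factors that act upstream of the early genes was also read. Of 24 tested, edgeR called 0 in NMO against Normal and 0 in NMO+Clodronate against NMO, where 1 was higher (6.05% of all genes) and 3 were lower (7.47%), respectively, at an unadjusted p under 0.05, and DESeq2 and limma-voom also called 0 in the former. Against Normal, edgeR called 0 higher in NMO+Clodronate and 2 lower, Mapk9 and Map2k1, beside 4.79% and 4.43% of all genes. At an unadjusted p under 0.05 there were 0 higher (11% of all genes) and 5 lower (11.3%). In that comparison DESeq2 called 3 lower, the additional one being Atf2 at -0.78 (adjusted p = 0.0423), and limma-voom called 2 lower. In the 3 comparisons the list had median log2 fold changes of 0.11, -0.12 and -0.09. Mapk9, which encodes the kinase JNK2 that acts on Jun, had 63.6, 47.1 and 57.2 CPM in Normal, 46.1, 40.2 and 41.3 in NMO and 21.2, 24 and 25.6 in NMO+Clodronate. The groups did not overlap, and the log2 fold change of Mapk9 against Normal was -1.25 (adjusted p = 0.00604). Map2k1, which encodes the ERK kinase MEK1, had a log2 fold change of -0.94 against Normal (adjusted p = 0.044), a call made in 8 of 17 alternatives and lost without any one Normal library, NMO replicate 1 or NMO+Clodronate replicate 2 or 3. Without Normal replicate 3 its value was -0.74 (adjusted p = 0.219). Against NMO Map2k1 had -1.05 (adjusted p = 0.0775) and was called lower in 3 of 17 alternatives, DESeq2 among them (adjusted p = 0.028), while limma-voom called 0 of the list there. Srf and Creb1 had log2 fold changes of 0.27 and -0.13 in NMO+Clodronate against Normal, with adjusted p of 0.781 and 0.798.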

How the data were processed

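The authors made QuantSeq 3′ libraries from sorted microglia, aligned 75-base reads with Bowtie2, and counted reads at each gene by bedtools, multiple alignments included. The build in the submitters' processing notes is mm10. Raw whole-number counts were deposited, with no scaling. Tool versions, the annotation and the use of strand are not given in the sources used here. The 35 symbols with several entries were summed.

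The software was edgeR 4.0.16 in R 4.3.3, with filterByExpr (minimum count 10, minimum total 15), TMM scaling, and a quasi-likelihood model over all 9 libraries with 1 coefficient per group. Tests were two-sided and adjusted by Benjamini-Hochberg over 12292 genes. Calls needed an adjusted p under 0.05, and a looser rule of 1.5-fold and an unadjusted p under 0.05 was applied as well. It follows the fold and p cutoffs in the study's text on microglia, which does not say whether p was adjusted. Some captions of its microglia figure give a smaller fold. CPM are relative to TMM-scaled totals. The scripts were tested on simulated data. The alternatives used DESeq2 1.42.0, limma 3.58.1 (voom), other scalings and filters, and each library left out. Same-numbered libraries correlated between -0.0128 and 0.038 after group means were removed, so numbers were not treated as pairs. Between libraries of a group, chi-square over its degrees of freedom was 22.8 to 54.8, above counting error.

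Members, lists and tests were chosen with earlier results of these data known. Values in every library are given for genes past a threshold in any comparison and for the most counted gene of each role, and for at most 4 called genes per pathway list and comparison. Fos, Egr1, Nr4a1, Cebpd, Zfp36, Hspa1b and Hsp90aa1, and the values of uncalled pathway genes, were added after their values were seen. Positions are from GENCODE M21 and promoter windows from RefSeq on GRCm38.p6, the mm10 assembly. Motifs were searched on both strands with no test.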

Additional observations from a re-analysis of the deposited data

How the results depend on the processing

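In total 17 alternatives were run, and of 1221 values of single genes 1123 kept their direction and their side of the threshold. Of the others, 41 dropped below the threshold, 40 rose past it and 17 changed sign, of which each was a value not called in either setting. With low counts unfiltered, NMO+Clodronate against NMO gave 4 members higher and 2 lower, with 4 lower by fold and unadjusted p, and 496 genes in all, while NMO+Clodronate against Normal gave 8 higher and 3 lower, with 4 lower by fold and unadjusted p, and NMO against Normal called 223 genes in all. By DESeq2 the first gave 4 higher, 1 lower by fold and unadjusted p, and 465 genes in all, NMO+Clodronate against Normal 7 members higher and 0 lower, and NMO against Normal 1 higher by fold and unadjusted p and 224 genes in all. For NMO+Clodronate against Normal in these 2 settings the number of all genes called is not given here. The member counts there thus have no share of all genes beside them. With only the 2 groups compared, NMO+Clodronate against NMO gave 1 higher and 73 genes in all, and NMO against Normal 34 genes in all. By library totals alone, NMO against Normal gave 4 higher by fold and unadjusted p and 96 genes in all, against 1 higher with RLE factors, and NMO+Clodronate against Normal gave 1 lower by fold and unadjusted p.

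With the replicate number as a block, which the data did not show to pair the libraries, NMO+Clodronate against NMO gave 1 member lower (Rhob) and 4 lower by fold and unadjusted p, and the calls of Ier2 and Map2k1 against Normal were lost. Hsp90ab1 gained a call with the block in NMO against Normal, at 0.88 (adjusted p = 0.0302), and in NMO+Clodronate against NMO, at 0.72 (adjusted p = 0.0457). With Normal, NMO or NMO+Clodronate libraries left out one at a time, members called were 0 to 2 higher and 0 to 2 lower in NMO+Clodronate against NMO and 3 to 6 higher and 0 to 2 lower in NMO+Clodronate against Normal. By fold and unadjusted p, 1 to 4 were higher and 0 to 1 lower in NMO against Normal, 0 to 4 lower in NMO+Clodronate against NMO and 1 to 5 lower in NMO+Clodronate against Normal. All genes called were 20 to 75, 51 to 231 and 649 to 1263 in the 3 comparisons.

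Signs changed as follows. In NMO against Normal, library totals alone gave 0.0018 for Klf4 and 0.091 for Dnajb1, and limma-voom gave 0.00027 for Ppp1r15a. With 1 library left out, log2 fold changes ran from -0.066 to 1.22 for Fosl2, -0.24 to 0.15 for Klf4, -0.45 to 0.058 for Rhob, -0.39 to 0.27 for Ppp1r15a, -0.27 to 0.23 for Hspa1a, -0.16 to 0.064 for Dnajb1 and -0.049 to 0.30 for Map2k1. In NMO+Clodronate against NMO they ran from -0.32 to 0.00083 for Jun and -0.069 to 0.29 for Ier2, and in NMO+Clodronate against Normal from -0.19 to 0.18 for Klf6 and -0.44 to 0.23 for Ppp1r15a. The cause of these changes was not tested.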
